A study of Mus musculus with 8 samples.

Results

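The tdTomato reporter of Ki67TD-NES mice contributes 3 of the 31058 features that were counted in single cells of the dentate gyrus, and these 3 elements are described here across cell types. They were taken by name. tdTomatoLoxP is the floxed stop sequence of the reporter cassette and is present in RNA from the intact locus. WPRE, a viral element that stabilises RNA, and bGHpolyA, the polyadenylation signal of bovine growth hormone, lie at the other end of the cassette and are transcribed once the stop sequence is gone. Over the 26036 barcodes and 135486534 unique molecular identifiers (UMIs) of the series, tdTomatoLoxP had 235547 UMIs, WPRE 15883 and bGHpolyA 3408.

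The reporter is a lineage mark that depends on a recombination event. Ki67 protein is made by cells that are in the cell cycle and is lost in quiescence, and a recombinase placed under the control of its gene is therefore made in dividing cells. The recombinase, Ki67-creERT2, stays out of the nucleus until tamoxifen is given, and then cuts at 2 loxP sites and removes the stop sequence between them. The change is in the DNA, so it is inherited by all daughters and remains after the cell has stopped dividing. In the dentate gyrus, radial stem cells that enter the cycle give rise to intermediate progenitors, which divide and become neuroblasts, and oligodendrocyte precursors form a second, separate population of dividing cells. Astrocytes, oligodendrocytes, mural cells and endothelial cells of the adult hippocampus divide rarely.

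The name of the mouse line refers to the gene that drives the recombinase and not to the position of the reporter. Mki67 (ENSMUSG00000031004) occupies positions 135689784 to 135716361 of chromosome 7 in GRCm38, minus strand. The reporter was inserted at the ROSA26 locus, where the annotation places the noncoding gene Gt(ROSA)26Sor (ENSMUSG00000086429) at positions 113067428 to 113077333 of chromosome 6, also minus strand, and it has a CAG promoter of its own. The coding sequence of tdTomato had been disabled in the study's reference, and its row held 0 UMIs, as its construction fixed. Transcription of the recombined locus was therefore read from WPRE and bGHpolyA alone.

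All mice were heterozygous for the Nestin-GFP transgene, the Ki67-creERT2 allele and the reporter, on a mixed C57BL/6J and CD1 background. Tamoxifen was gavaged on each of 6 days at a dose of 100 mg/kg, the mice were killed on day 8, and between 2 and 5 males and females were pooled in an experiment. The 7 experiments comprised 1 at 1 month, 3 at 2 months and 3 at 6 to 8 months of age, and no untreated mice were among them. GFP+ cells with and without tdTomato were sorted. In the first experiment at 2 months the tdTomato-negative cells formed a library of their own, and the label of the second library names tdTomato-positive and double-negative cells. The other 6 libraries held both sorts. The 10x reagents were of Version 2 for the experiments at 2 months but of Version 3 for those at 1 month and at 6 to 8 months, so the age of 2 months and Version 2 cannot be told apart. The share of tdTomato-positive cells loaded into a library of both sorts is not given in the sources used here. Levels of the reporter elements, tdTomatoLoxP included, that differ between libraries cannot be told apart from that share.

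Cells were assigned to 9 types by markers, with lists of 10 genes a type. A cell needed at least 3 markers of its own list and a lead of at least 2 over every other list. Of 26036 barcodes, 20733 were assigned, namely 1717 stem cells, 683 progenitors, 1916 neuroblasts, 6310 oligodendrocyte precursors, 6773 oligodendrocytes, 1292 astrocytes, 904 mural cells, 697 microglia and 441 endothelial cells. Assigned cells held on average between 5.44 and 9.84 markers of their own list. The next list reached 3.25 markers in progenitors and 2.73 in neuroblasts, which are neighbouring stages, and at most 1.74 in the other types. The libraries held between 4861883 and 43826338 UMIs. Pairs of libraries shared between 0 and 13 barcode sequences. Levels are given below as CPM, the UMIs of an element for each 1000000 UMIs in the summed cells of a type in an experiment, which is the replicate.

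RNA of the intact locus was found in every cell type, at levels that differed several-fold. In mural cells, the contractile and supporting cells of vessels, tdTomatoLoxP reached 4016 CPM in the lowest of 7 experiments, 7281 in the median and 8337 in the highest. In stem cells it lay at 1206, 2847 and 3310 CPM in the lowest, median and highest experiment. In neuroblasts these values were 498, 907 and 1227 CPM. The mural and neuroblast values did not overlap, and the highest neuroblast value lay just above the lowest value of stem cells. The share of all features that separate mural cells from neuroblasts likewise is not given here. Endothelial cells had means of 3103 ± 955 CPM (SD, n = 7), precursors 1846 ± 617, astrocytes 1628 ± 323, oligodendrocytes 1026 ± 226 and progenitors 956 ± 468. Microglia had at least 10 cells in only 2 experiments, with 741 and 1249 CPM.

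The order of tdTomatoLoxP levels on the log2 scale was mural cells, endothelial cells, stem cells, precursors, astrocytes, oligodendrocytes, progenitors and neuroblasts. Mural cells exceeded endothelial cells by 1.03 ± 0.16 (log2 difference, SD, n = 7, higher in 7 of 7 experiments, two-sided exact sign-flip p = 0.0156, adjusted p = 0.0273 over 7 neighbouring pairs). Endothelial cells exceeded stem cells by 0.40 ± 0.29, stem cells exceeded precursors by 0.36 ± 0.25 and astrocytes exceeded oligodendrocytes by 0.67 ± 0.26, each in 7 of 7 experiments and with the same exact p and adjusted p. Precursors and astrocytes (difference 0.13 ± 0.37, exact p = 0.391), oligodendrocytes and progenitors (0.24 ± 0.53, exact p = 0.297) and progenitors and neuroblasts (0.05 ± 0.33, exact p = 0.719) did not differ beyond their spread.

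**Figure D1:**
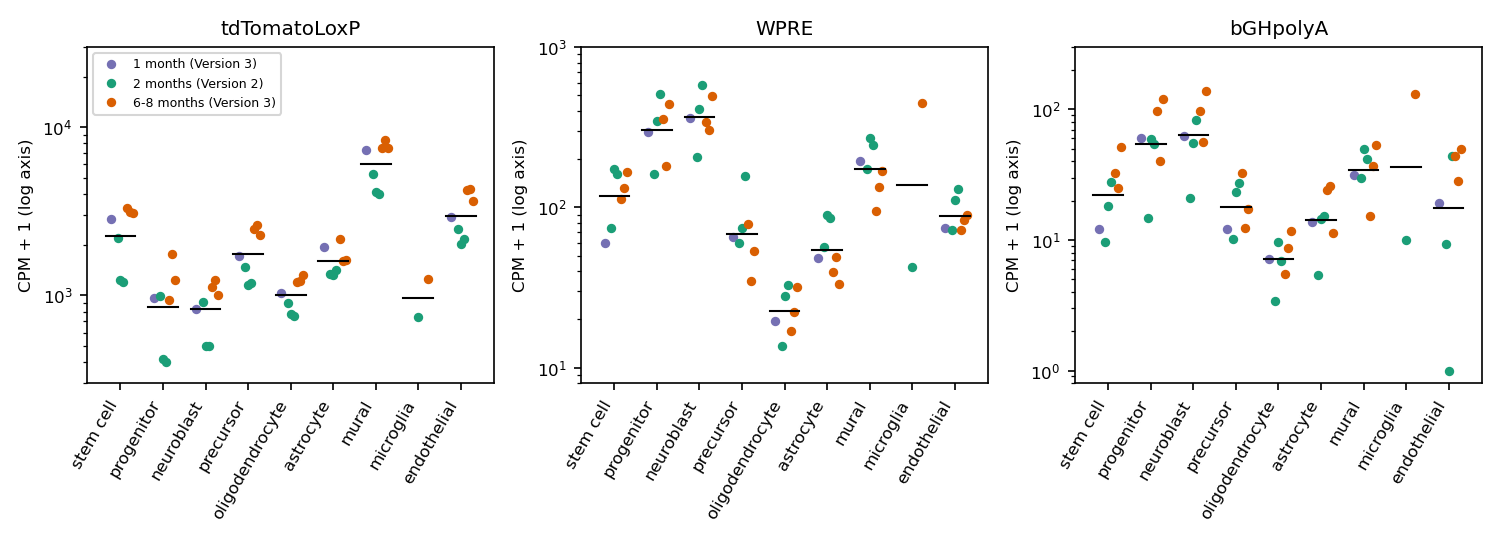
CPM plus 1, on log axes, of tdTomatoLoxP, WPRE and bGHpolyA in each cell type, with 1 point for each experiment that held at least 10 cells of the type and a line at the mean of the log values. tdTomatoLoxP is highest in mural cells (4016 to 8337 CPM), whereas the lines of WPRE and bGHpolyA are highest in progenitors and neuroblasts.

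Counts summed over the cells of a type in an experiment were then compared with stem cells across all features, with the experiment as a block (edgeR, adjusted p under 0.05). In progenitors, tdTomatoLoxP was 2.76-fold lower than in stem cells (log2 fold change −1.47, SE 0.09, adjusted p = 1.98e-14), while 63.8% of all tested features passed the same test. In neuroblasts it was 2.79-fold lower (log2 −1.48, SE 0.09, adjusted p = 8.47e-14), and 70.5% of features passed. In mural cells it was 2.71-fold higher (log2 1.44, SE 0.11, adjusted p = 9.16e-12), and 64.9% of features passed. Most tested features passed in these 3 comparisons with stem cells, and the calls are to be read against that. Recombined cells have lost the stop sequence, so the tdTomatoLoxP level of a type also depends on its share of such cells. Over 8 types, it ran from 106 to 2750 CPM in the library of tdTomato-positive and double-negative cells. In the tdTomato-negative library it ran from 907 to 5364 CPM over 8 types. The part of this share in the differences between types was not tested.

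The other types differed less in tdTomatoLoxP. It was lower than in stem cells by a log2 fold change of −0.59 in precursors (SE 0.10, adjusted p = 1.27e-05, 62.5% of features called), of −0.86 in oligodendrocytes (SE 0.13, adjusted p = 8.52e-06, 66.6% called) and of −0.42 in astrocytes (SE 0.10, adjusted p = 0.00043, 52.3% called). In microglia, over 2 experiments, it was lower by −1.24 (SE 0.22, adjusted p = 1.2e-07, 52.3% called). In endothelial cells it was higher by 0.40 (SE 0.11, adjusted p = 0.0019, 64.5% called), and this call was lost when features with low counts were kept in the fit (log2 fold change 0.24, adjusted p = 0.173).

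Among the types with 7 experiments, WPRE and bGHpolyA had their highest means in neuroblasts and progenitors, where tdTomatoLoxP had its lowest. Stem cells had a lower mean WPRE than mural cells (125 against 182 CPM). Microglia, in 2 experiments, had 41.5 and 446 CPM of WPRE and 9.01 and 130 CPM of bGHpolyA. In neuroblasts, WPRE lay at 206, 359 and 575 CPM in the lowest, median and highest of 7 experiments, and bGHpolyA at 19.96, 61.4 and 137. In progenitors the corresponding WPRE values were 160, 346 and 505 CPM, and those of bGHpolyA 13.7, 58.2 and 120. In stem cells WPRE lay at 58.9, 131 and 172 CPM and bGHpolyA at 8.57, 23.98 and 50.3. In oligodendrocytes, at the other end of the order, WPRE reached only 12.7, 21.3 and 31.8 CPM and bGHpolyA 2.41, 6.15 and 10.7. Stem cells and oligodendrocytes did not overlap in WPRE, and neuroblasts and stem cells did not either. Of all tested features, edgeR called 66.6% between oligodendrocytes and stem cells and 70.5% between neuroblasts and stem cells, so separation of these types is not particular to WPRE.

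Both elements moved alike in these comparisons with stem cells. In neuroblasts WPRE was 3.25-fold higher (log2 1.70, SE 0.13, edgeR adjusted p = 8.57e-12) and bGHpolyA 3.26-fold higher (log2 1.70, SE 0.16, adjusted p = 6.18e-10). In progenitors WPRE was 2.60-fold higher (log2 1.38, SE 0.14, adjusted p = 4.51e-10) and bGHpolyA 2.78-fold higher (log2 1.47, SE 0.18, adjusted p = 2.7e-08). In precursors WPRE was 2.16-fold lower (log2 −1.11, SE 0.20, adjusted p = 2.61e-05) and bGHpolyA 1.92-fold lower (log2 −0.94, SE 0.22, adjusted p = 0.000808), although the bGHpolyA call was lost without the third experiment at 6 to 8 months (log2 −0.49, adjusted p = 0.0743). In oligodendrocytes WPRE was 4.71-fold lower (log2 −2.24, SE 0.12, adjusted p = 1.81e-12) and bGHpolyA 3.31-fold lower (log2 −1.73, SE 0.23, adjusted p = 1.71e-06).

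Astrocytes and the cells of vessels were less uniform. In astrocytes WPRE was 1.88-fold lower than in stem cells (log2 −0.91, SE 0.18, edgeR adjusted p = 2.87e-05), while bGHpolyA had a log2 fold change of −0.64 (SE 0.30, adjusted p = 0.0658) that passed only with total UMIs as library sizes (−0.81, adjusted p = 0.0178). In mural cells WPRE was 1.54-fold higher (log2 0.62, SE 0.18, adjusted p = 0.00448). In the same comparison tdTomatoLoxP was 2.71-fold higher. The bGHpolyA difference in mural cells (log2 0.56, SE 0.25, adjusted p = 0.0492) lost its call with total UMIs (0.50, adjusted p = 0.0803), with DESeq2 (0.62, adjusted p = 0.0518) and without any one of the 3 experiments at 2 months (0.48 to 0.57, adjusted p between 0.0603 and 0.104). In endothelial cells WPRE had a log2 fold change of −0.36 (SE 0.18, adjusted p = 0.0861) and bGHpolyA was too low to be tested. In microglia, over 2 experiments, WPRE (log2 0.72, SE 0.31, adjusted p = 0.0415) and bGHpolyA (log2 1.40, SE 0.54, adjusted p = 0.0207) passed in edgeR but not in DESeq2 (adjusted p = 0.476 and 0.182). In the first experiment at 2 months, microglia came mainly from the library of tdTomato-positive and double-negative cells. Stem cells there came mainly from the tdTomato-negative library. The comparisons of microglia with stem cells, that of tdTomatoLoxP included, therefore mix sorts. Among cells with at least 5 reporter UMIs, the library of tdTomato-positive and double-negative cells held 84 astrocytes and 13 stem cells. The tdTomato-negative library held 93 and 196. Comparisons of astrocytes with stem cells that include this experiment thus mix sorts as well.

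The first experiment at 2 months, with its sorts kept apart, gave a background for the recombined elements. Of the reporter UMIs in tdTomato-negative cells, WPRE and bGHpolyA made up between 1.57% in precursors and 3.29% in astrocytes over the 8 types with at least 10 cells. Stem cells stood at 2.02% (exact 95% interval 1.48% to 2.70%), neuroblasts at 2.74% (1.88% to 3.84%) and mural cells at 3.05% (2.11% to 4.26%). Over the same types and library, tdTomatoLoxP ran from 907 to 5364 CPM. WPRE lay highest in mural cells of this library, at 138 CPM (exact Poisson interval 91.1 to 201), against 12.4 (8.59 to 17.3) in oligodendrocytes. All such intervals cover counting error only. The shares are of UMIs and not of transcripts, since the lengths of the elements and how well each is captured are not given in the sources used here.

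In the library of tdTomato-positive and double-negative cells the share was graded from stem cells to neuroblasts. It was 25.2% in stem cells (exact 95% interval 18.7% to 32.5%, 17 cells), 55.6% in progenitors (49.4% to 61.6%, 36 cells) and 85.9% in neuroblasts (81.5% to 89.6%, 105 cells). Precursors reached 62.8% (51.1% to 73.5%, 42 cells). The intervals of stem cells, progenitors and neuroblasts did not overlap. In the glia of the same library the share stayed low, at 2.33% in oligodendrocytes (0.482% to 6.65%, 40 cells), 5.19% in astrocytes (3.98% to 6.63%, 443 cells) and 6.40% in microglia (5.24% to 7.72%, 648 cells). The label of this library also names cells without either fluorophore, and eGFP in the 2 experiments with microglia lay at 0 and 4.51 CPM in their cells, against 1473 ± 661 (SD, n = 7) in stem cells. With 1 library a sort, these values have no replicate check.

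**Figure D2:**
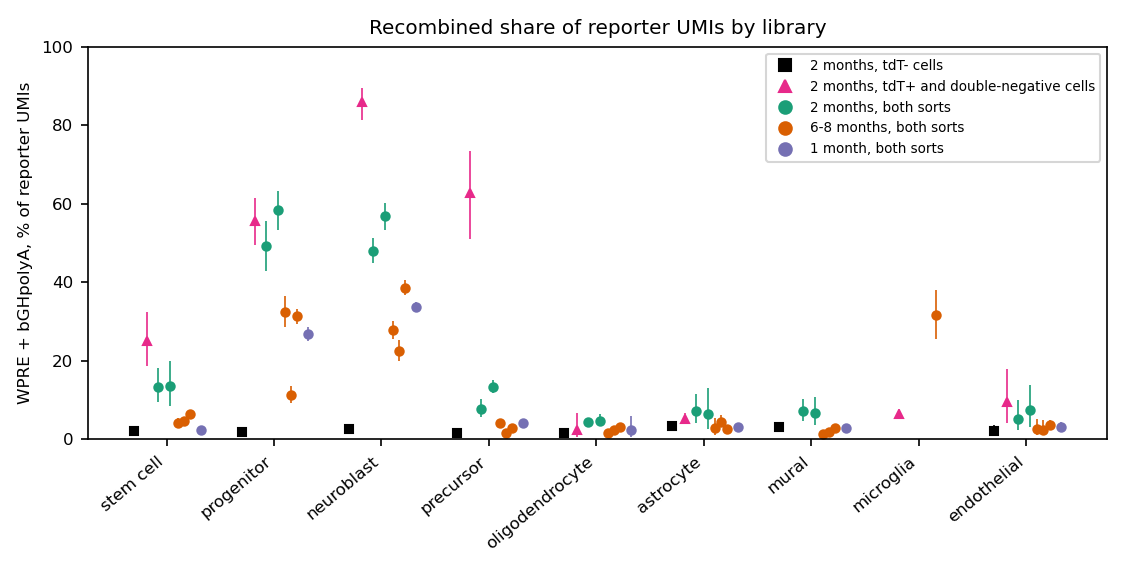
WPRE and bGHpolyA as a percentage of all reporter UMIs in each cell type, with 1 symbol for each library that held at least 10 cells of the type and bars for exact 95% intervals. Squares, the tdTomato-negative library, lie at 1.57% to 3.29% in the 8 types with at least 10 cells there, and triangles, the library of tdTomato-positive and double-negative cells, reach 85.9% in neuroblasts.

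In the 6 libraries of both sorts the share was 22.6% to 56.9% in neuroblasts, 11.2% to 58.3% in progenitors, 2.40% to 13.5% in stem cells and 1.69% to 13.3% in precursors. In oligodendrocytes, astrocytes, mural cells and endothelial cells it lay between 1.40% and 7.34%. The 30 microglia of the first experiment at 6 to 8 months stood apart from the other glia with 31.6% recombined UMIs. Among them, WPRE had 55 UMIs, bGHpolyA 16 and tdTomatoLoxP 154. Of the 18 with at least 5 reporter UMIs, 5 had a recombined share above 95% and 8 a share of at most 5%. The value of 31.6% therefore mixes unlike cells.

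Types were compared within experiments, which does not remove the share of each sort that was loaded. Stem cells and neuroblasts lay closer in the tdTomato-negative library (2.02% and 2.74%) than in that of tdTomato-positive and double-negative cells (25.2% and 85.9%), and the size of a difference between types in libraries of both sorts cannot be told apart from that share. The log2 ratio of WPRE plus bGHpolyA to tdTomatoLoxP UMIs lay in stem cells at −5.34 in the experiment at 1 month, between −4.73 and −2.66 at 2 months and between −4.52 and −3.85 at 6 to 8 months. In neuroblasts it lay at −0.97, between −2.00 and 0.40, and between −1.78 and −0.67. The neuroblast ratio was above that of stem cells by 3.09 ± 0.63 on the log2 scale (SD, n = 7, 8.49-fold), in 7 of 7 experiments. The progenitor ratio was above it by 2.77 ± 0.84 (6.83-fold), in 7 of 7 experiments. For both, the two-sided exact sign-flip p was 0.0156, the smallest that 7 experiments can give. Over the 7 types compared the adjusted p was 0.0547. With only 2 of the 7 types at that exact p, the adjusted p cannot be lower. The threshold of 0.05 was thus out of reach whatever the size of these differences, and the adjusted test cannot decide on them.

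No other type passed the adjusted test either. Oligodendrocytes lay below stem cells in 6 of 7 experiments (mean −1.14 ± 0.62, exact p = 0.0312, adjusted p = 0.0729), as did endothelial cells (−0.65 ± 0.59, exact p = 0.0469, adjusted p = 0.082). Mural cells lay below in 5 of 7 (−0.84 ± 0.72, exact p = 0.0625, adjusted p = 0.0875), astrocytes in 5 of 7 (−0.50 ± 0.68, exact p = 0.125, adjusted p = 0.146) and precursors in 4 of 7 (−0.36 ± 0.87, exact p = 0.281, adjusted p = 0.281). Neuroblasts and progenitors did not differ beyond their spread (0.31 ± 0.52, exact p = 0.141, adjusted p = 0.492 over 7 neighbouring pairs). Microglia lay above stem cells by 0.87 and 3.41 in their 2 experiments, too few for a test. The 0.87 belongs to the first experiment at 2 months, whose separately sorted libraries were summed. Its microglia came mainly from the library of tdTomato-positive and double-negative cells, and its stem cells mainly from the tdTomato-negative library. Within the former library the recombined share was lower in microglia than in stem cells, as given above.

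**Figure D3:**
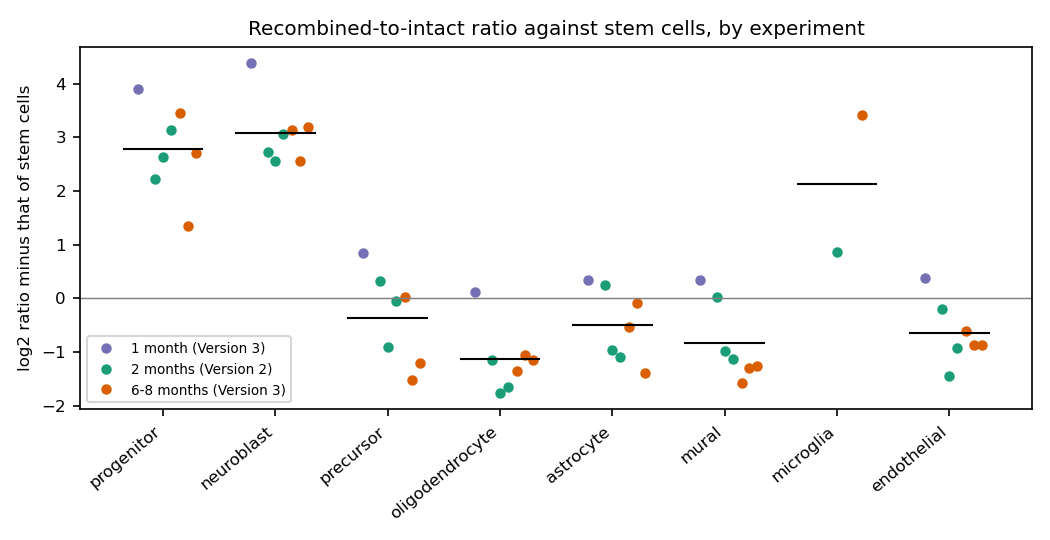
Difference in log2 recombined-to-intact ratio between each cell type and the stem cells of the same experiment, with 1 point an experiment and a line at the mean. Progenitors (1.35 to 3.90) and neuroblasts (2.56 to 4.37) lie above 0 in all 7 experiments, and the experiment at 1 month is the highest point in 7 of the 8 types.

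UMIs of intact and recombined RNA were found together in single cells, and the mixture differed between types. Among cells with at least 5 reporter UMIs, 442 of 959 neuroblasts (46.1%), 239 of 501 progenitors (47.7%), 69 of 1435 stem cells (4.81%) and 193 of 4839 precursors (3.99%) had a recombined share above 20%. Of those neuroblasts, 262 had a share above 80%. The number above 80% was 69 among the progenitors, 20 among the precursors and 1 among the stem cells. Stem cells above 20% had a median share of 36.7%, precursors of 46.7%, progenitors of 66.7% and neuroblasts of 85.7%. Other types also held cells above 20%, namely 14 of 132 microglia (10.6%), 21 of 494 astrocytes (4.25%) and 8 of 248 endothelial cells (3.23%). In mural cells they were 17 of 765 (2.22%) and in oligodendrocytes 56 of 3198 (1.75%). Pooled over libraries, stem cells and precursors thus lay close to astrocytes in this share, but the libraries differed. In those at 6 to 8 months it was 8.42% to 9.66% in stem cells and 1.05% to 4.69% in astrocytes. At 1 month it was 2.34% and 3.36%, and in the tdTomato-negative library 0.51% and 4.30%. Each of the other libraries, all at 2 months, held at most 14 stem cells with at least 5 reporter UMIs. The counts and shares are over cells that share libraries, and they are given as a description.

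Cells with recombined RNA and no tdTomatoLoxP UMI were most frequent in neuroblasts, and stem cells had fewer of them than the glia. They numbered 554 among 1916 neuroblasts, 86 among 683 progenitors, 112 among 6310 precursors and 7 among 1717 stem cells (0.41%). There were 26 among 697 microglia (3.73%), 14 among 1292 astrocytes (1.08%) and 44 among 6773 oligodendrocytes (0.65%). None was found among 904 mural or 441 endothelial cells, counts that allow shares of up to 0.332% and 0.68%. Yet 292 mural cells held UMIs of both kinds. The recombined share of mural reporter UMIs over all libraries was 2.72%, within the 1.57% to 3.29% seen over types in the tdTomato-negative library. This count is therefore not set apart from that background. Such counts of cells without tdTomatoLoxP also depend on how many intact UMIs a cell holds. The mean was 16.6 in mural cells, 15.6 in stem cells, 5.46 in oligodendrocytes, 4.91 in astrocytes and 2.43 in microglia. Among cells with at least 5 reporter UMIs, few had a recombined share above 95%. They were 2 of 3198 oligodendrocytes, 1 of 494 astrocytes, 6 of 132 microglia and 0 of 1435 stem cells. The 7 stem cells with recombined RNA and no tdTomatoLoxP UMI all came from the second and the third experiments at 2 months, with 5 and 2 cells. These libraries were shallow, with median depths of 1471 and 2085 UMIs per stem cell against 3868 to 7270 in those of Version 3.

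**Figure D4:**
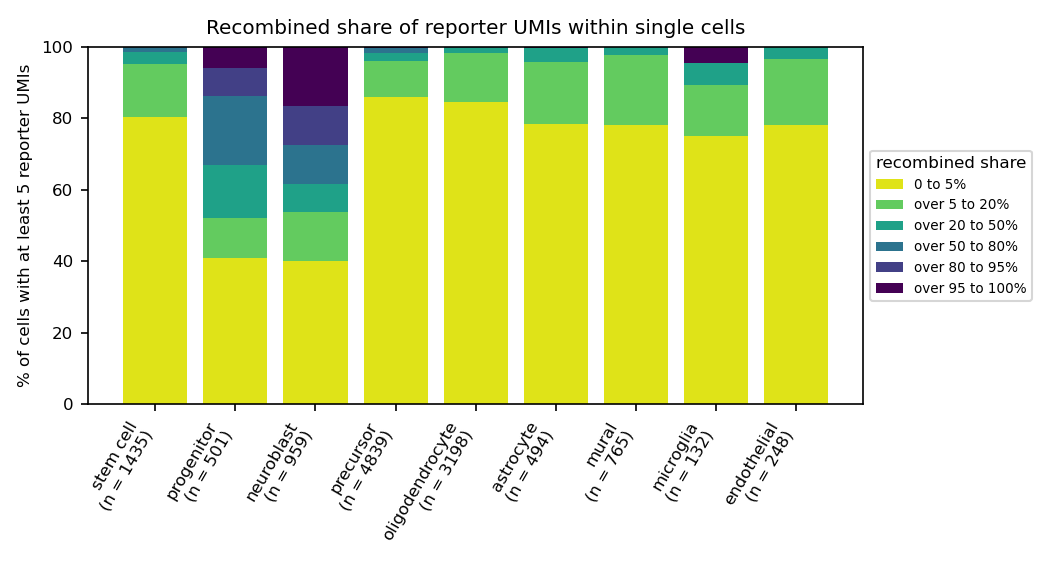
Cells with at least 5 reporter UMIs of each type, over all libraries, divided by the percentage of those UMIs that were WPRE or bGHpolyA, stacked to 100%. Shares above 80% make up 262 of 959 neuroblasts and 1 of 1435 stem cells.

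The share of cells with a UMI moved with depth, so that it is given at full depth and after each cell was thinned to 1000 UMIs. At full depth, WPRE or bGHpolyA was found in 58.9% ± 13.0 of neuroblasts (mean over experiments, SD, n = 7), 59.1% ± 14.7 of progenitors, 27.9% ± 10.6 of stem cells and 12.3% ± 5.73 of oligodendrocytes. After thinning these shares were 29.8% ± 7.59, 25.4% ± 9.08, 11.0% ± 4.30 and 2.28% ± 1.40. In the tdTomato-negative library, thinned shares ran from 1% in oligodendrocytes to 12.4% in mural cells over the 8 types with at least 10 cells, against 2.28% and 17.7% ± 7.44 in these types over all experiments. tdTomatoLoxP was found in 94.8% ± 8.02 of thinned mural cells, 85.1% ± 8.92 of stem cells and 42.9% ± 8.78 of neuroblasts. Between 5 and 314 cells of a group of libraries were too shallow to be thinned. They included 148 of 904 mural and 83 of 441 endothelial cells, against 26 of 1717 stem cells and 17 of 6773 oligodendrocytes. Thinned shares of mural cells therefore describe the deeper ones.

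Counted per cell at full depth, tdTomatoLoxP had 13.9 ± 9.17 UMIs in mural cells, 13.4 ± 9.89 in stem cells and 5.62 ± 3.49 in neuroblasts (mean over experiments, SD, n = 7). WPRE had 2.24 ± 1.34 UMIs per neuroblast, 2.72 ± 1.77 per progenitor, 0.591 ± 0.439 per stem cell and 0.124 ± 0.0678 per oligodendrocyte. bGHpolyA had 0.471 ± 0.415 UMIs per neuroblast and 0.132 ± 0.14 per stem cell. Libraries of Version 3 were deeper, and the spread of these counts between experiments includes that difference.

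The study called a cell recombined when it held fewer than 4 intact and more than 1 recombined UMIs, with both limits doubled for Version 3. By this rule 35.5% ± 8.58 of neuroblasts, 33.5% ± 15.2 of progenitors, 3.56% ± 3.81 of stem cells and 3.46% ± 2.45 of precursors were called (mean over experiments, SD, n = 7). In oligodendrocytes, astrocytes, mural cells and endothelial cells the mean share was between 0.254% and 0.901%. The study set these limits on its first dataset, in which tdTomato-positive and tdTomato-negative cells were sequenced apart. The shares called in the separately sorted libraries are therefore no independent check of the rule. In the tdTomato-negative library at most 0.926% of a type was called, in neuroblasts. The library of tdTomato-positive and double-negative cells gave 62.9% of neuroblasts (exact 95% interval 52.9% to 72.1%), 50% of progenitors (32.9% to 67.1%), 28.6% of precursors (15.7% to 44.6%) and 17.6% of stem cells (3.799% to 43.4%).

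The share called depended on the limit on intact UMIs in some types. In the third experiment at 6 to 8 months, 0 of 182 stem cells were called, which allows a share of up to 1.65%, although 17 of the 176 with at least 5 reporter UMIs had a recombined share above 20%. Without that limit the mean share called was 8.66% in stem cells, 4.46% in mural cells, 2.63% in endothelial cells and 0.882% in oligodendrocytes. In neuroblasts and progenitors it moved by less than 1 SD of the experiments.

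WPRE and bGHpolyA lie on the same transcript, and their ratio was compared as well. Over all assigned cells, bGHpolyA UMIs amounted to 11.9%, 17.6% and 14.4% of WPRE UMIs in the 3 experiments at 2 months, to 29.2%, 27.9% and 29.8% in those at 6 to 8 months and to 18.1% in the one at 1 month. The values at 6 to 8 months lay above that at 1 month with the same chemistry, and no test of this was made. None of 7 types differed from stem cells in the exact sign-flip test, with log2 differences from −0.12 ± 0.21 in neuroblasts (SD, n = 7, exact p = 0.203, adjusted p = 0.284) to 0.57 ± 0.60 in oligodendrocytes (n = 6, exact p = 0.0625, adjusted p = 0.191). In oligodendrocytes it was higher in 5 of 6 experiments.

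Genes of dividing cells and recombined RNA did not have the same order over the cell types. A list of 10 mitotic genes, including Mki67, Top2a, which untangles DNA, and the mitotic kinase gene Cdk1, summed to 1878 ± 681 CPM in progenitors (SD, n = 7), 604 ± 316 in stem cells, 240 ± 185 in neuroblasts and 137 ± 104 in precursors. It summed to 17.7 ± 13.6 in oligodendrocytes and 9.60 ± 8.58 in mural cells. In edgeR all 10 genes were higher in progenitors than in stem cells (median log2 fold change 1.56, against 0.03 over all features, of which 33% were called higher). All 10 were lower in neuroblasts (median −1.51, against 0.08 over all features, 32.6% called lower) and in precursors (median −2.11, against 0.08, 27.8% called lower). In oligodendrocytes all 9 tested were lower (median −5.25, against −0.01, 33.9% called lower) and in microglia all 7 tested (median −2.94, against −0.22, 30.2% called lower). In astrocytes 6 genes were tested and lower (25.8% of features called lower), in mural cells 3 (33% called lower), and in endothelial cells none was tested. Where a type hardly expressed these genes, they passed the filter on low counts through stem cells, and the counts there support nothing further. Neuroblasts combined the highest mean WPRE and bGHpolyA levels with mitotic genes below those of stem cells.

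A list of 9 genes of the G1/S transition, with the genes of the replicative helicase, was also examined. All 9 were higher in progenitors than in stem cells (median log2 fold change 1.42, 33% of all features called higher) and 6 of 7 tested were lower in neuroblasts (median −1.70, 32.6% of features called lower). All 7 tested were lower in precursors (median −1.60, 27.8% called lower) and all 7 in oligodendrocytes (median −2.79, 33.9% called lower). In astrocytes all 6 tested were lower (25.8% called lower), in mural cells all 4 (33%), in endothelial cells all 3 (34.8%) and in microglia 5 of 7 (30.2%). Here too, genes that a type hardly expressed passed the filter on low counts through stem cells, and such counts support nothing further. Mcm5, for example, had a mean of 3.03 CPM in astrocytes and 5.31 in mural cells, against 39.3 in stem cells. Mki67 itself, the gene that drives the recombinase, was 2.67-fold higher in progenitors than in stem cells (log2 1.42, SE 0.15, adjusted p = 2.37e-09), 2.61-fold lower in neuroblasts (log2 −1.38, SE 0.19, adjusted p = 5.1e-07) and 3.07-fold lower in precursors (log2 −1.62, SE 0.19, adjusted p = 5.73e-08).

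In the separately sorted libraries, the mitotic list lay apart within some types. In stem cells it summed to 3854 CPM in the library of tdTomato-positive and double-negative cells (exact Poisson interval 3472 to 4266) and to 436 (395 to 480) in the tdTomato-negative library. In progenitors these sums were 3279 (3060 to 3510) and 1902 (1801 to 2008). In neuroblasts the order was the other way, with 163 (126 to 208) and 369 (330 to 410), and in precursors the sums were 20.9 (2.53 to 75.5) and 159 (135 to 186). The stem cells and progenitors of the former library are 17 and 36 cells, and the intervals do not cover differences between cells.

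Within a type and experiment, cells with recombined RNA alone were compared with cells with intact RNA alone. Only neuroblasts had at least 10 cells of both kinds in all 7 experiments. Their mitotic list had a mean log2(CPM + 1) of 4.54 in recombined and 7.04 in intact cells, a difference of −2.51 ± 2.86 (SD, n = 7) that was negative in 6 of 7 experiments (two-sided exact sign-flip p = 0.0938). The third experiment at 2 months was the exception, with 117 UMIs in 113 recombined cells and 6 UMIs in 85 intact cells, and without it the mean difference was −3.56. In the other 6 experiments these recombined neuroblasts held between 0 and 18 mitotic UMIs. The share of cells with a mitotic UMI went the other way on average, higher by 0.247 percentage points in recombined neuroblasts (exact sign-flip p = 0.891). In progenitors, which had enough cells in 2 experiments, the difference was 0.70 and positive in both. In precursors it was −3.04 ± 2.58 (SD, n = 4) and negative in 3 of 4 experiments. In oligodendrocytes and microglia, with 1 experiment each, it was 3.38 and −4.74. None of these 4 types was tested.

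With cells divided by the thresholds of the study in place of these 2 kinds, an alternative chosen after the data had been seen, no type passed the test. The neuroblast difference was −0.76 ± 3.03 (SD, n = 7), negative in 4 of 7 experiments (exact p = 0.469, adjusted p = 0.5 over 3 types), and the called neuroblasts held between 3 and 330 mitotic UMIs. In progenitors it was −0.40 ± 1.05 (n = 6), negative in 5 of 6 experiments (exact p = 0.5, adjusted p = 0.5). In precursors it was −4.34 ± 3.502 (n = 5), negative in 4 of 5 experiments (exact p = 0.125, adjusted p = 0.375), from 0 to 10 mitotic UMIs in the called cells. The direction in progenitors differed between the 2 ways of dividing the cells.

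Age could be tested only within Version 3, with 3 experiments at 6 to 8 months against 1 at 1 month, which was assumed to vary like the others. In stem cells tdTomatoLoxP lay at 3310, 3142 and 3105 CPM in the 3 older experiments and at 2847 at 1 month (log2 fold change 0.07, SE 0.32, edgeR adjusted p = 0.9996). WPRE lay at 112, 131 and 165 CPM against 58.9 (log2 1.13, SE 0.29, adjusted p = 0.0326), and bGHpolyA at 31.6, 23.98 and 50.3 against 11.1 (log2 1.62, SE 0.34, adjusted p = 0.00546). Both recombined elements were higher in each older experiment, while 1.06% of all features passed the test. The calls did not hold without the second experiment (WPRE adjusted p = 0.827, bGHpolyA adjusted p = 0.827) or without the third (0.203 and 0.544), nor did that of WPRE with DESeq2 (0.202). The share of tdTomato-positive cells loaded may also differ between these libraries, and its part in the result was not tested. Over all assigned cells, bGHpolyA UMIs amounted to 27.9% to 29.8% of WPRE UMIs in the older experiments and to 18.1% at 1 month. Whether the larger change of bGHpolyA than of WPRE is particular to stem cells was not tested. Genes of dividing cells had positive log2 fold changes in the older stem cells. The median was 0.61 over the 10 mitotic genes (0.33 to 1.35) and 0.75 over the 9 G1/S genes (0.42 to 1.39), against 0.03 over all features. With only 1 experiment at 1 month, these values do not establish a rise with age. Whether these genes bear on the reporter elements was not tested.

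In neuroblasts and precursors no element passed in edgeR. In neuroblasts tdTomatoLoxP lay at 1116 ± 116 CPM at 6 to 8 months (SD, n = 3) and at 824 at 1 month (log2 fold change 0.40, SE 0.24, adjusted p = 0.9997), and bGHpolyA had the largest difference (log2 0.66, SE 0.26, adjusted p = 0.879), where 0.251% of features passed. In precursors tdTomatoLoxP lay at 2465 ± 172 CPM against 1719 (log2 0.46, SE 0.23, adjusted p = 0.63) and WPRE at 54.6 ± 21.7 against 64.7 (log2 −0.49, SE 0.24, adjusted p = 0.586), where 0.979% of features passed. At 2 months, with the older chemistry, tdTomatoLoxP lay at 1540 ± 562 CPM in stem cells, 635 ± 236 in neuroblasts and 1269 ± 174 in precursors, and no test against the other ages was made.

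**Figure D5:**
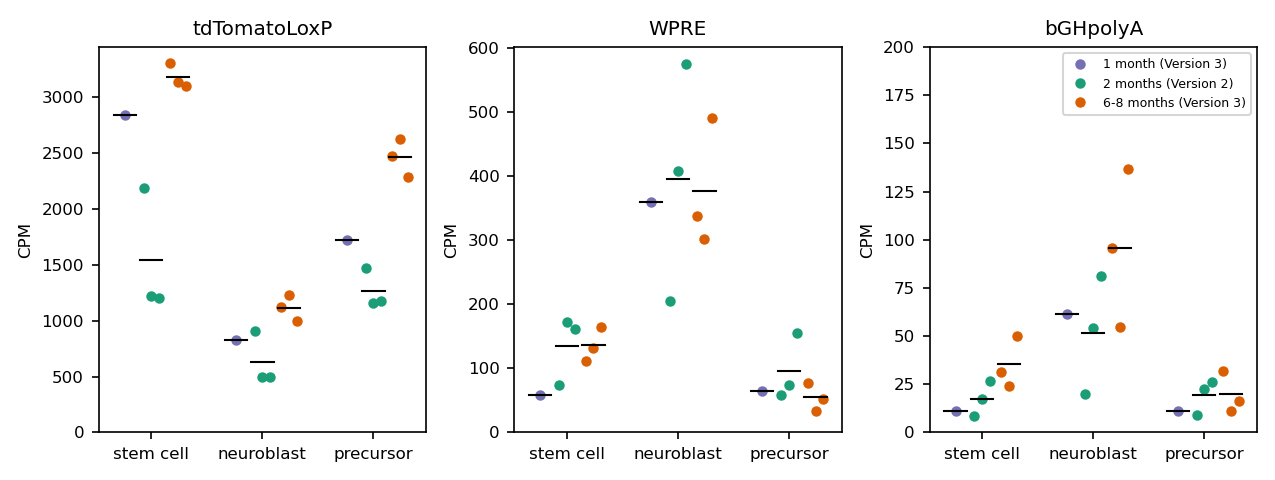
CPM of the 3 elements in stem cells, neuroblasts and precursors at each age, with 1 point an experiment and a line at the mean. In stem cells tdTomatoLoxP lies at 2847 CPM at 1 month and at 3105 to 3310 at 6 to 8 months, and WPRE at 58.9 and at 112 to 165.

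The gene at the insertion site of the reporter was measured in the same cells. Gt(ROSA)26Sor was highest in astrocytes, at 124 ± 48.1 CPM (SD, n = 7), and lay at 119 ± 32.7 in mural cells, 103 ± 30.8 in oligodendrocytes, 81.1 ± 25.7 in stem cells and 82.0 ± 13.7 in neuroblasts. Its log2 fold change against stem cells was 0.77 in astrocytes (SE 0.13, edgeR adjusted p = 1.49e-06) and 0.71 in oligodendrocytes (SE 0.11, adjusted p = 1.35e-05), where tdTomatoLoxP was lower (−0.42 and −0.86). It was 0.68 in mural cells (SE 0.15, adjusted p = 0.000259), −0.02 in progenitors (SE 0.14, adjusted p = 0.92) and 0.11 in neuroblasts (SE 0.11, adjusted p = 0.395), where tdTomatoLoxP had 1.44, −1.47 and −1.48. These tdTomatoLoxP values include recombined cells, which have lost the stop sequence. The other transgene, eGFP from Nestin-GFP, was highest in mural cells (2429 ± 1015 CPM) and higher there than in stem cells (log2 0.77, SE 0.10, adjusted p = 2.52e-07), and it was lower in neuroblasts (log2 −3.63, SE 0.10, adjusted p = 1.82e-20). Nes, whose regulatory sequence drives that transgene, was higher in mural cells (log2 1.31, SE 0.16, adjusted p = 1.29e-07) and in endothelial cells (log2 2.37, SE 0.21, adjusted p = 1.89e-11) than in stem cells.

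Patterns most like those of the reporter were sought over the 58 sums of a cell type in an experiment, among 7398 genes with a mean of at least 20 CPM. For WPRE plus bGHpolyA the 10 genes with the highest Pearson correlation of log2 levels were Spin1 (r = 0.80), Hmgn1, which encodes a nucleosome-binding protein, Cited2, a transcriptional coregulator, Ier5, Tbca, a tubulin folding cofactor, Hnrnph1 and Srsf7, which act in splicing, Dlgap4, Arf4 and the nucleoside transporter gene Slc29a1 (r = 0.77). Spin1 lay at 122 ± 18.6 CPM in neuroblasts (SD, n = 7), 82.1 ± 9.10 in progenitors, 47.6 ± 9.73 in stem cells and 17.4 ± 3.202 in oligodendrocytes. Others of the 10 had another order of types. Hmgn1 was highest in progenitors (1159 ± 35.8 CPM), Cited2 in mural cells (453 ± 256) and Ier5 in microglia (1368 ± 234, n = 2). For tdTomatoLoxP the 5 highest were Rras (r = 0.86), the integrin gene Itga1, the basement membrane collagen gene Col4a2, Aldh2 and Ginm1 (r = 0.82). Itga1 lay at 552 ± 189 CPM in mural cells, 186 ± 50.1 in endothelial cells and 8.52 ± 2.43 in stem cells. The correlation of Gt(ROSA)26Sor was 0.11 with tdTomatoLoxP and −0.16 with the recombined elements, and that of Nes with tdTomatoLoxP was 0.61. The sums of an experiment share its library and depth, and the correlations are given as a description.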

How the data were processed

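Droplet libraries of the dentate gyrus (8 libraries, 7 experiments) were mapped by the authors with Cell Ranger 3.0.2 to mm10 with reporter sequences added, and merged without normalization. Submitters' processing notes also name cutadapt 1.18 and Seurat. The deposited values are raw UMI counts per feature and barcode. Barcode suffixes gave the library, and 0 columns of samples were left unmapped. How reads were shared between reporter elements is not given in the sources used here. Where the labels give 6 months, the range of the study was used.

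The limits of the study, more than 500 genes and less than 10% of UMIs from mitochondria, left 24376 of 26036 barcodes. A cell with at least 4 markers in each of 2 lineages was taken as a doublet (725 cells, 2.97%), a limit chosen after 3 (2182 cells) had been compared. The gate was also set with the data in view, and the members and gene lists were chosen with earlier results of these data known. 2826 cells stayed without a type. Endothelial cells were gated beside the other 8 types.

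Counts were summed per experiment and type, with at least 10 cells, and tested with edgeR 4.0.16 (quasi-likelihood, TMM, filterByExpr, Benjamini-Hochberg over all tested features), under R 4.3.3, with DESeq2 1.42.0 as an alternative. Ratios used a pseudocount of 0.5 and two-sided exact sign-flip tests over experiments, with Python 3.11 and scipy. The mitotic comparison used log2(CPM + 1). The bGHpolyA-to-WPRE ratio needed 5 UMIs. Alternatives were total UMIs as library sizes, no filter on low counts, no experiment block, other gates, thinning and leaving out each experiment. 3 alternatives were added after seeing the data. Named genes were the reporter rows, Mki67, Gt(ROSA)26Sor, Nes, both gene lists, and the 10 and 5 genes most correlated with the recombined and intact elements. Experiments pool mice, so p-values measure the spread between experiments. On simulated counts for neuroblasts against stem cells (8800 genes, 200 changed), edgeR recovered all 48 genes set to a log2 change of −2 that were tested and 39 of the 50 set to −1.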

Additional observations from a re-analysis of the deposited data

Results flagged for a closer look

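Neuroblasts of the experiment at 1 month had a log2 recombined-to-intact ratio 4.37 above that of stem cells, apart from the next highest experiment at 3.18. Oligodendrocytes of the same experiment lay 0.13 above stem cells, apart from the next at −1.06, and only 15 oligodendrocytes were assigned there. Both values stand farther from the other 6 experiments than Dixon's limit at 95% allows. In each difference the stem cells of that experiment enter, whose ratio of −5.34 was the lowest of the 7. Chance flags about 1 in 20 sets, and 14 sets were examined.

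Reporter UMIs were also present in cells outside the types compared. Of the reporter UMIs in 45 mature neurons, 30.0% were recombined (exact 95% interval 24.7% to 35.9%). In 2826 cells without a type the share was 17.2% (16.7% to 17.6%), against 1.64% (1.17% to 2.22%) in the 431 such cells of the tdTomato-negative library. In the 725 cells set aside as doublets it was 9.70%, against 2.15% in the 34 of the tdTomato-negative library. In the 1660 barcodes that failed the filters it was 5.81%, against 1.80% in 129 of that library.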

How the results depend on the processing

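No result changed direction while past its threshold under any alternative. The recombined-to-intact ratio of neuroblasts stayed between 2.76 and 6.68 above that of stem cells (log2), and that of progenitors between 2.43 and 4.81. With no barcode filter and no doublet removal the adjusted exact p fell to 0.0365 for progenitors (2.82), neuroblasts (3.18) and oligodendrocytes (−0.99). Precursors, astrocytes and endothelial cells, never past the threshold, turned to 1.02, 1.20 and 0.66 when cells with recombined RNA alone and with intact RNA alone were counted in place of UMIs. No endothelial cell and only 7 of 1717 stem cells held recombined RNA alone. The pseudocount of 0.5 and the number of intact cells therefore weigh heavily in this count, and no change in recombination can be read from it. The bGHpolyA-to-WPRE ratio passed under none of 63 alternatives. Those that left out an experiment kept at most 6, where the smallest exact sign-flip p is 0.03125. After adjustment over 7 types they could pass only if most types reached it, so they say little. The mitotic difference in neuroblasts ran from −3.56, without the third experiment at 2 months, to −2.15 when 1 experiment was left out. It passed under 1 of 12 alternatives, that without the third experiment at 2 months.

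Of 224 alternatives for element levels against stem cells, 204 left the call as it was. Without the experiment as a replicate block, calls were lost for tdTomatoLoxP in precursors (log2 fold change −0.63), astrocytes (−0.45) and endothelial cells (0.38), for bGHpolyA in precursors (−0.76), mural cells (0.70) and microglia (1.43) and for WPRE in microglia (1.38). With total UMIs as library sizes, bGHpolyA gained its call in astrocytes (−0.81), and calls were lost for bGHpolyA in mural cells (0.50) and microglia (1.13) and for WPRE in microglia (0.45). With no filter on low counts, calls were lost for WPRE in microglia (0.64) and tdTomatoLoxP in endothelial cells (0.24). DESeq2 lost bGHpolyA in mural cells (0.62) and microglia (1.38), WPRE in microglia (0.87), and WPRE between ages in stem cells (1.12). With 1 experiment left out, bGHpolyA ran from −1.22 to −0.49 in precursors and from 0.48 to 0.66 in mural cells, and between ages in stem cells WPRE ran from 0.99 to 1.21 and bGHpolyA from 1.20 to 1.84. TMM moved the median of all features against total UMIs by −0.23 in precursors, 0.33 in oligodendrocytes, 0.17 in astrocytes, 0.27 in microglia and −0.11 between ages in stem cells, and no element changed direction with it. The cause of these changes was not tested.

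With no filter on low counts, which tests more features, edgeR called 9529 features in oligodendrocytes (6038 with the filter), 7006 in mural cells (3737) and 6455 in endothelial cells (2777). DESeq2 called 2699 in microglia (4471 in edgeR). Between ages, edgeR called 109 features in stem cells, 25 in neuroblasts and 133 in precursors, and DESeq2 called 6, 8 and 27. Total UMIs gave 63 in stem cells and 78 in precursors. With 1 older experiment left out the counts ran from 0 to 139 in stem cells, from 23 to 51 in neuroblasts and from 25 to 200 in precursors. The count of 0 in edgeR, without the second experiment at 6 to 8 months, goes with 486 features at an unadjusted p under 0.05, and DESeq2 was not run without it. Only 1 experiment at 1 month limits all comparisons between ages, and low UMI counts limit bGHpolyA and the mitotic genes within types.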
